A study of Homo sapiens with 24 samples.

Results

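Untreated cells of the line U937 were compared with untreated cells of the lines HL60, KG1a and MOLM14. The comparison used the 12 untreated arrays of a series of 24, of which 3 are of U937 and 9 of the other lines. For each gene the mean of the 3 U937 arrays was set against the mean of the 3 other lines, each line counting equally. A gene was called apart where U937 also differed from each of the 3 lines in the same direction, and 2188 of 10641 genes tested met that condition. The study grew 4 human acute myeloid leukaemia lines untreated, labelled Ctrl, or with 10 mM metformin for 24 h, labelled Met, and hybridized their RNA to Affymetrix arrays, 3 per group. Its purpose was a gene signature of high oxidative phosphorylation. The labels class U937 and HL60 as low and KG1a and MOLM14 as high in oxidative phosphorylation. Each line stands for itself only, since its 3 arrays are not other leukaemias. The labels leave unsaid whether a group's arrays stem from separate cultures, and p-values here therefore measure array spread, which may be technical.

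U937 is a monoblast-like line, in which the fusion of PICALM with MLLT10 is known. HL60 is a promyelocytic line, KG1a an immature line with CD34 on its surface, and MOLM14 a monocytic line with a KMT2A fusion and an activated FLT3 receptor. Monocytes and macrophages take up particles, digest them in lysosomes, carry inhibitory and activating surface receptors such as the sialic acid binding SIGLEC proteins, and release chemokines. During maturation in the myeloid lineage, genes of stem cells are switched off and genes of granules and lysosomes are switched on.

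Values are log2 normalized signals, so a difference of 1 is a 2-fold difference. Differences are U937 minus the mean of the 3 other lines unless another line is named, and are given ± the standard error (SE) of limma's fit. A gene passed where limma's moderated test gave an adjusted p under 0.05 over all 10641 genes. The median of all rows of the table was 4.02, and a signal under it lies in the lower part of the table's values. Arrays of 1 group correlated at 0.983 to 0.993. HL60 Ctrl C, U937 Ctrl C and U937 Met A stood apart from their groups in spread or correlation. Leaving out these 3 arrays gave 2140 genes apart from all 3 lines, 1326 higher and 814 lower.

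The monocytic nature of U937 was checked with 10 marker genes, of which 6 had a row in the table. LYZ, which encodes lysozyme, measured 9.41, 9.62 and 9.27 in the U937 arrays, and its mean was 7.26 in HL60, 3.46 in KG1a and 9.88 in MOLM14. MNDA, the myeloid nuclear differentiation antigen, averaged 10.00 in U937, the highest of the 4 lines. CD4 averaged 6.39 in U937 and 6.18 in HL60, against 7.82 in MOLM14 and 3.63 in KG1a. The mature marker CD14 averaged 3.44 in U937 and lay under the median of all rows in each line, and CD86 (3.71) lay under it in U937 as well. CSF1R, the receptor of macrophage colony-stimulating factor, averaged 4.37 in U937 and 5.99 in MOLM14. Over the 6 markers the mean signal of an array lay between 6.17 and 6.26 in U937, 5.32 and 5.34 in HL60, 3.72 and 3.82 in KG1a, and 6.38 and 6.46 in MOLM14. LYZ, MNDA and CD4 were thus well above the median of all rows in U937, and CD14 and CD86 were under it. CD33, ITGAM, FCGR1A, CLEC7A and PTPRC were not analysed here.

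Of the markers of other cell types, the granulocytic ones were mostly high in U937. Of 4 granulocytic markers with a row, PRTN3 (11.82), CTSG (10.43) and AZU1 (8.70) were high in U937 and MPO (3.30) was under 4.02. Their mean signal lay between 8.54 and 8.58 in the U937 arrays, against 10.07 to 10.25 in HL60, 3.44 to 3.62 in KG1a and 10.61 to 10.66 in MOLM14. Of the progenitor markers, CD34 (3.53), KIT (4.06) and PROM1 (3.64) were near or under 4.02 in U937, and CD7 averaged 4.48. Both T cell markers with a row, CD2 (4.05) and CD5 (4.24), lay close to 4.02. AHSP of erythroid cells (3.87) and GP9 (3.24) and PPBP (3.27) of megakaryocytes lay under it. The B cell marker PAX5 averaged 4.88. NKG7, a granule protein of killer cells, was high, with a mean of 9.73 in U937, against 5.78 in HL60, 7.77 in KG1a and 6.54 in MOLM14, while GNLY of the same cells averaged 3.26 in U937.

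Untreated U937 differed from the mean of the other lines in 6534 genes (61.4% of those tested). Of these 3279 were higher (30.8% of genes tested) and 3255 lower (30.6%). Against HL60 alone 55.9% of genes differed, 2981 of them higher (28.0%) and 2967 lower (27.9%). Against KG1a alone 61.9% differed, with 3459 higher (32.5%) and 3130 lower (29.4%). Against MOLM14 alone 55.7% differed, with 3154 higher (29.6%) and 2768 lower (26.0%). These pairs share the 3 U937 arrays. Apart from all 3 lines were 1323 genes that were higher (12.4%) and 865 that were lower (8.13%). With each other line set against its own 3 others by the same test, 1062 genes were higher and 765 lower for HL60, 1635 and 1368 for KG1a, and 1124 and 1066 for MOLM14. Among the genes of U937 apart from all 3 lines, differences of at least 2-fold from the nearest line were found for 233 of the higher genes (2.19% of genes tested) and 128 of the lower ones (1.2%). The 3 U937 arrays lay above all 9 other untreated arrays in 1374 genes (12.9%) and below all 9 in 978 (9.19%). The threshold fell between MRPS30 (-0.17 ± 0.07, adjusted p = 0.0499 in limma's test) and KIAA1191 (0.20 ± 0.09).

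Genes were ranked by size among protein-coding genes apart from all 3 lines whose U937 arrays did not overlap the other arrays. Those with the largest positive differences included a chemokine, a drug-metabolizing enzyme, metal-binding and survival proteins, and markers of myeloid cells. CCL2, the chemokine that attracts monocytes, measured 10.59, 10.79 and 10.72 in the U937 arrays. Its values were 2.88, 2.78 and 2.73 in HL60, 2.76, 2.88 and 2.90 in KG1a, and 3.40, 3.78 and 4.20 in MOLM14. High signal was thus found in the 3 U937 arrays only, and the difference was 7.55 ± 0.13 (SE, n = 3 per group, adjusted p = 4.72e-24 in limma's test). CDA encodes cytidine deaminase, which inactivates the leukaemia drug cytarabine. It measured 9.55, 9.63 and 9.56 in U937, and the 9 other arrays lay between 3.94 and 4.59 (5.33 ± 0.09). COX8C, an isoform of a cytochrome c oxidase subunit known from testis, measured 8.31, 8.26 and 8.20 in U937 and at most 3.25 elsewhere (5.19 ± 0.07). No array of another line came near those of U937 in either gene.

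MT1G, a metallothionein that binds zinc and copper, averaged 9.58 in U937, against 3.33 in HL60, 3.36 in KG1a and 7.05 in MOLM14. BCL2A1, a survival protein of the BCL2 family, measured 9.22, 9.37 and 9.42 in U937, and KG1a was the nearest line with 6.64, 6.67 and 6.81. BCL2 itself was lower in U937, with 7.25, 7.50 and 7.13, against means of 9.41 in HL60, 9.30 in KG1a and 8.86 in MOLM14 (-1.90 ± 0.08, adjusted p = 7.51e-17 in limma's test). The arrays of U937 did not overlap those of another line in any of these 3 genes. CST7, which encodes the lysosomal protease inhibitor cystatin F, averaged 12.09 in U937 and 9.30 in MOLM14, the nearest line (4.04 ± 0.06). The septin SEPTIN3 (4.53 ± 0.08), the tetraspanin TSPAN2 (4.39 ± 0.08) and the integrin activator FERMT1 (4.34 ± 0.07) were higher by similar amounts. So were MNDA (4.34 ± 0.08), the receptor SLAMF8 (4.24 ± 0.12) and the adhesion receptor ADGRA2 (4.14 ± 0.06). By distance from the nearest line, the next genes were SIGLEC12 (3.90 above HL60), SMC1B of the meiotic cohesin (3.73 above MOLM14), MX2 (3.67 above MOLM14) and the glycoprotein gene GPNMB (3.66 above KG1a). The sulfotransferase gene HS3ST2 (3.65 above KG1a) and the matrix-associated gene CCN3 (3.58 above KG1a) followed.

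Under the same limits, which leave out genes such as MPO (-4.93), the largest negative differences were those of REEP3, NRIP1 and BLMH. REEP3, which shapes the endoplasmic reticulum, measured 3.31, 3.41 and 3.32 in U937. It measured 8.0, 7.95 and 7.77 in HL60, 8.44, 8.32 and 8.10 in KG1a, and 10.39, 10.52 and 10.63 in MOLM14. U937 thus lay under the median of all rows where the others were at least 4.56 higher in the mean (-5.55 ± 0.07, n = 3 per group, adjusted p = 7.4e-26 in limma's test). NRIP1, a corepressor of nuclear receptors, measured 3.25, 3.30 and 3.53 in U937 and at least 7.47 in each other array (-5.04 ± 0.07). BLMH, which encodes bleomycin hydrolase, measured 3.79, 3.55 and 3.75 in U937 and at least 8.01 in each other array (-4.99 ± 0.06). In none of these 3 genes did a U937 array overlap another line.

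Among genes apart from all 3 lines, the next negative differences were those of the kinase PRKD3 (-4.64 ± 0.11), the zinc finger gene ZNF562 (-4.59 ± 0.09), the nucleosome-binding gene HMGN3 (-4.58 ± 0.09) and the desmosomal cadherin DSG2 (-4.55 ± 0.06). OXR1 of oxidation resistance (-4.30 ± 0.12), CCDC50 (-4.05 ± 0.06), the centrosomal gene CEP70 (-3.77 ± 0.08), ZNF429 (-3.70 ± 0.16) and FNIP1, a partner of folliculin (-3.68 ± 0.08), completed the 12. By distance from the nearest line came E2F7, an atypical repressor of the E2F family (-3.32 from HL60), SEPTIN11 (-3.02 from MOLM14) and the scaffold gene CNKSR2 (-2.87 from MOLM14). IRAK1BP1 (-2.71 from MOLM14), the ciliary gene TCTN2 (-2.66 from KG1a) and CACHD1 (-2.61 from KG1a) were next. Of the 128 lower genes that were at least 2-fold from the nearest line, 59 lay under 4.02 in U937. Of the 233 higher ones, 68 lay under 4.02 in each of the 3 other lines. In the 24 genes named by size, the largest adjusted p of the mean difference was 5.13e-16 in limma's test.

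**Figure D1:**
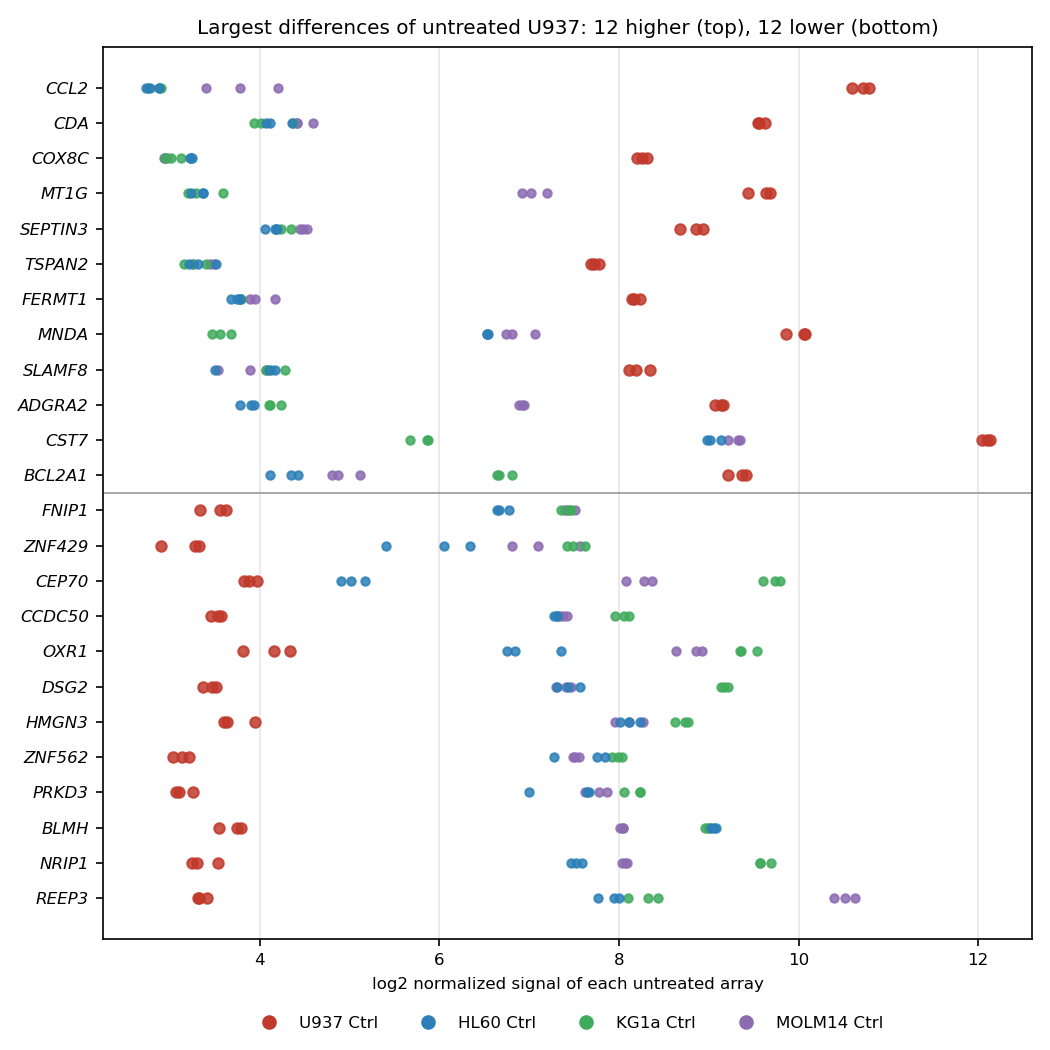
Log2 normalized signal (horizontal axis) of genes apart from all 3 lines, each point 1 untreated array. Shown are the 12 protein-coding genes with the largest positive and the 12 with the largest negative difference among those whose arrays did not overlap. U937 is in red and the other 3 lines in blue, green and violet. In CCL2 the U937 arrays sit at 10.59 to 10.79 and the other arrays at 4.20 or less, and in REEP3 the U937 arrays sit at 3.41 or less.

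Genes of monocyte and macrophage surface receptors were mostly higher in U937. Of 23 tested, 17 were higher and 4 lower, against 30.8% and 30.6% of all genes, with a median difference of 1.05, against -0.01 over all genes. Without KG1a, 13 were higher and 6 lower, with a median of 0.57. Apart from all 3 lines were 7, all of them higher. SIGLEC7, an inhibitory receptor for sialic acid, measured 7.10, 7.18 and 7.12 in U937 and at most 3.83 in the other arrays (3.67 ± 0.10). SIRPA, an inhibitory receptor of phagocytes, averaged 9.76 in U937, against 7.55 in HL60, 3.65 in KG1a and 8.45 in MOLM14 (3.21 ± 0.09). CD300LF, another inhibitory receptor, averaged 7.96 in U937 and 6.73 in MOLM14, the nearest line (3.23 ± 0.10). The activating receptor TREM1 (1.15) and FPR2, a receptor for formylated peptides (2.94), were among the 7. Against MOLM14 alone, 8 of the list were higher and 9 lower, with a median of -0.05, against 0.01 over all genes. TYROBP, the adaptor of activating receptors, averaged 8.59 in U937 and 10.01 in MOLM14, and CCR2, the receptor of CCL2, 3.65 in U937 and 6.19 in MOLM14.

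Of the 8 SIGLEC genes tested, 6 were higher than in each other line and none lower, against 12.4% and 8.13% of all genes. Genes under 4.02 in every group were not tested, among them SIGLEC8 (3.51 in U937), SIGLEC9 (3.45) and FPR1 (3.71). In SIGLEC7, SIGLEC5 and FPR2, U937 was the only untreated group to reach 4.02. The filter thus favoured members high in U937, and the share and the window below leave out low genes. SIGLEC12 measured 7.97, 8.16 and 8.04 in U937 and at most 4.29 elsewhere. SIGLEC5 (3.06 ± 0.07), SIGLEC6 (3.05 ± 0.10), SIGLEC14 (2.64 ± 0.09) and SIGLEC10 (2.15 ± 0.08) were also higher. SIGLEC5 and SIGLEC14 are near-identical over part of their length, so their separate values are uncertain. The difference of SIGLEC11 was -0.05 ± 0.11 and that of SIGLEC15 -0.03 ± 0.10. The 6 higher genes lie close together on chromosome 19 in the RefSeq gene order. All windows of 15 neighbouring tested protein-coding genes were ranked by their median difference, and the highest was the window from KLK14 to FPR2, with a median of 2.15. It held 10 genes that were higher in U937 than in each other line. IGLON5, within the window, differed by 0.04 ± 0.13 and did not pass. The windows were ranked after the values were known and overlap each other, so this is a description.

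**Figure D2:**
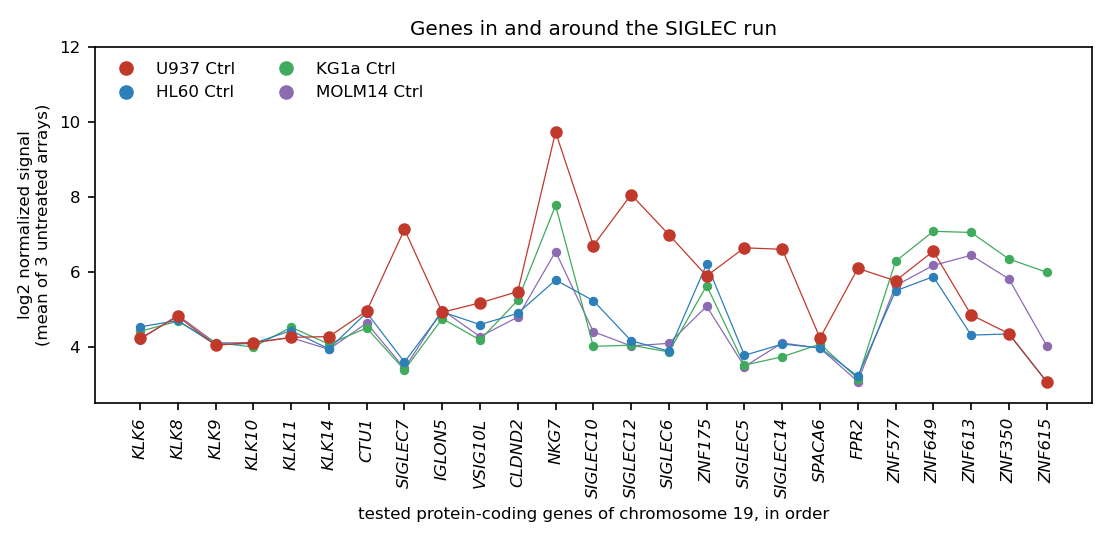
Mean log2 normalized signal of 3 untreated arrays per line (vertical axis) for 25 neighbouring tested protein-coding genes of chromosome 19 in order (horizontal axis), U937 in red and the other lines in blue, green and violet. The U937 points of SIGLEC7, SIGLEC10, SIGLEC12, SIGLEC6, SIGLEC5, SIGLEC14, NKG7 and FPR2 stand above those of the 3 other lines, and those of KLK6, KLK8, KLK9, KLK10 and KLK11 lie close to those of the other lines.

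Lysosomal genes, which serve digestion inside the cell, were mostly higher in U937. Of 27 tested, 19 were higher and 5 lower than the mean of the other lines (70.4% and 18.5%, against 30.8% and 30.6% of all genes), and 3 were lower without MOLM14. Of the list, 13 were higher and none lower than each line, against 12.4% and 8.13% of all genes. A further 2 with a row stayed under 4.02 in every group and were not tested, while CTSH reached it among untreated groups in U937 only. Of the members named below, CTSH and HEXA lie on chromosome 15, CTSZ and CTSA on chromosome 20, and LAMP2 and TFE3 on chromosome X. On these chromosomes 34.7%, 29.2% and 35.2% of all genes tested were above each line. The list was not tested against its chromosomes. CTSH, a cysteine protease, measured 6.20, 6.32 and 6.28 in U937 and at most 3.94 in the other arrays (2.78 ± 0.07). CTSZ, of the same family, averaged 7.44 in U937, against 4.29 in HL60, 3.97 in KG1a and 6.54 in MOLM14. ASAH1, which cleaves ceramide, measured 8.68, 8.90 and 8.67 in U937, against 7.26 to 7.46 in KG1a, the nearest line (1.68 ± 0.07). In none of these 3 genes did U937 overlap another line. The aspartic protease CTSD (1.48), the hexosaminidase subunit HEXA (1.35), the membrane proteins LAMP2 (1.32) and LAMP1 (0.92), and CTSA (0.96) were also above each line. So was TFE3 (0.72), a transcription factor of lysosomal genes. CTSW, a protease of killer lymphocytes, was lower (-2.51), with 4.17 in U937 and 9.47 in KG1a.

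Granule genes included proteases at high signal and a peroxidase at low signal. Of 19 tested, 11 were higher and 4 lower (57.9% and 21.1%, against 30.8% and 30.6% of all genes). Without KG1a, 7 were higher and 6 lower and the median difference was -0.06, against 0.81 with it. Against MOLM14 alone, 5 were higher and 10 lower, with a median of -0.32, against 0.01 over all genes. The neutral serine protease gene PRTN3 averaged 11.82 in U937, against 11.36 in HL60, 12.26 in MOLM14 and 3.30 in KG1a. AZU1 (8.70 in U937) and CTSG (10.43 in U937) had the same order of U937 and MOLM14, with MOLM14 the higher. MPO, the peroxidase of azurophil granules, measured 3.33, 3.12 and 3.44 in U937, against 12.58, 12.47 and 12.40 in HL60 and 8.92, 8.96 and 8.92 in MOLM14. KG1a (3.18, 3.27 and 3.33) overlapped U937, so MPO was lower than the mean (-4.93 ± 0.07) without being apart from each line. SLPI, a protease inhibitor, was above each line (3.45), as were CEACAM6 (1.83), MMP8 (0.92) and S100A9 (0.81). The last 3 averaged 4.73, 4.44 and 5.20 in U937. ELANE was not analysed here.

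Genes of lipid uptake and handling were higher in 13 and lower in 4 of 21 tested (61.9% and 19%, against 30.8% and 30.6% of all genes), and 2 were lower without the 3 arrays that stood apart. PLTP, which transfers phospholipids between lipoproteins, measured 7.93, 8.05 and 7.96 in U937 and at most 5.29 elsewhere (3.24 ± 0.09). PTGS1, the constitutive cyclooxygenase, measured 8.20, 8.24 and 8.01 in U937 and at most 5.93 elsewhere (2.80 ± 0.08). CD36, a scavenger receptor and fatty acid carrier, averaged 5.94 in U937, against 3.15 in HL60, 3.08 in KG1a and 4.99 in MOLM14. These 3 genes separated U937 from every other array. Thromboxane synthase TBXAS1 (1.46) and the nuclear receptors PPARD (1.24) and PPARG (1.07) were above each line as well. PTGS2, the inducible cyclooxygenase, was lower (-0.92), at 3.46 in U937 and 5.42 in KG1a.

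Among 22 chemokines and cytokines tested, 11 were higher and 5 lower (50% and 22.7%, against 30.8% and 30.6% of all genes), and 2 were lower without the 3 arrays that stood apart. CCL2 stood far above the rest of the list. CCL5 measured 8.52, 8.39 and 8.47 in U937, against 7.59, 7.30 and 7.65 in HL60, and means of 4.46 in KG1a and 7.49 in MOLM14 (1.97 ± 0.07). IL18 (1.18), VEGFA (1.37) and CCL23 (0.73) were also above each line. CXCL8 averaged 6.44 in U937 and 6.20 in HL60, against 3.40 in KG1a and 3.62 in MOLM14. Of 21 chemokine and cytokine receptors, 7 were higher and 10 lower (33.3% and 47.6%, against the same shares of all genes), with a median of -0.17. Without MOLM14 the list turned, with 10 higher and 6 lower and a median of 0.11. CXCR4, the receptor that holds leukaemic cells in the marrow niche, averaged 9.98 in U937, against 8.45 in HL60, 4.36 in KG1a and 9.01 in MOLM14 (2.71 ± 0.07). Of 25 Toll-like receptor and inflammasome genes, 10 were higher and 8 lower (40% and 32.0%), and without HL60, 10 were higher and 11 lower. TLR4 measured 7.38, 7.69 and 7.28 in U937 and 6.95, 7.23 and 6.84 in HL60, with KG1a and MOLM14 at 3.88 or less. TLR3, which binds double-stranded RNA, was lower than in each line (-1.99), at 3.28 in U937.

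Interferon response genes were mostly lower in U937. Of 36 tested, 27 were lower and 4 higher, against 30.6% and 30.8% of all genes, with a median of -0.92. Without KG1a, 21 were lower and 7 higher and the median was -0.32. SAMD9L, an antiviral and growth-restraining gene, measured 4.44, 4.56 and 4.21 in U937 and at least 6.73 in each other array (-3.05 ± 0.07, adjusted p = 1.6e-21 in limma's test). IFI35 (-1.43), HERC6 (-1.42), GBP3 (-1.28), IRF1 (-1.16), DDX60 (-1.04), TRIM22 (-1.02), SAMD9 (-1.0) and TRIM5 (-0.45) were the other members lower than in each line. GBP4 (-2.09), IFI44 (-1.89) and RSAD2 (-1.89) averaged 2.87, 3.19 and 3.65 in U937, against 9.02, 8.35 and 8.68 in KG1a, and none of their means in HL60 or MOLM14 was above 4.26.

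Of the list, 2 genes were higher than in each line. MX2, a GTPase that restricts viruses, measured 7.56, 7.68 and 7.42 in U937 and at most 4.08 in the other arrays (3.99 ± 0.08). MNDA, which belongs to the interferon-inducible family of nuclear proteins, measured 10.07, 10.06 and 9.86 in U937 and at most 7.06 elsewhere. IFITM2 (0.33) and BST2 (0.74) were higher than the mean only. The difference of IFIT3 was -0.06 ± 0.13 and did not pass.

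Promoters of this list were searched for the core of the interferon-stimulated response element, written GAAANNGAAA and, on the other strand, TTTCNNTTTC. Windows of 250 bases before to 50 bases after a RefSeq gene start (GRCh38.p14) were available for 28 of the 36 genes, and 19 of them (67.9%) held a match. Over all genes tested, 8077 had a window and 3.89% held a match. A match was held by 14 of the 22 lower genes with a window and by 5 of the 6 that were not lower. The 9 genes of the list that were not lower were 4 higher and 5 that did not pass. These counts therefore do not compare directions. The promoters of 3 members that were lower and of MNDA, which was higher, are shown because each holds the motif while U937 differs in opposite directions. Each runs from 200 bases before to 20 bases after the start, and capitals mark the motif.
DDX60, lower in U937, chr4:168318733-168318952, minus strand: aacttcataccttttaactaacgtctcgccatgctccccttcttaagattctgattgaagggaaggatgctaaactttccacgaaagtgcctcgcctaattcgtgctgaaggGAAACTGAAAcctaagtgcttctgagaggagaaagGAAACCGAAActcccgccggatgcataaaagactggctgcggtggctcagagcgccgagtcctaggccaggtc
SAMD9, lower in U937, chr7:93117960-93118179, minus strand: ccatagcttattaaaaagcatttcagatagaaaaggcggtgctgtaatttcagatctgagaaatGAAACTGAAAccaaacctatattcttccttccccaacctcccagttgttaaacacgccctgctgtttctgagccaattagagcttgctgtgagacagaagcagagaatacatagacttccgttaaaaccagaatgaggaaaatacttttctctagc
TRIM5, lower in U937, chr11:5685055-5685274, minus strand: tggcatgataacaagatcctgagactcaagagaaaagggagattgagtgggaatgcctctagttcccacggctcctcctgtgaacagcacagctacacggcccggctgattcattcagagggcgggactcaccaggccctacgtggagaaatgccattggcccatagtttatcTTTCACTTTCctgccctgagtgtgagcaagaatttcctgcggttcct
MNDA, higher in U937, chr1:158831151-158831370, plus strand: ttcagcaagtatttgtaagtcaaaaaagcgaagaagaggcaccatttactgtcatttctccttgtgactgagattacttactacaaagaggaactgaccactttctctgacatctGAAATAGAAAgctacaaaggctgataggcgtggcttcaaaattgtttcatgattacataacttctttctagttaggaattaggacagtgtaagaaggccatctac
The DDX60 window holds 2 matches, the first 88 bases before the start, and the matches of SAMD9, TRIM5 and MNDA begin 136, 27 and 85 bases before it. DDX60 measured 4.78, 4.67 and 4.55 in U937, against 5.34, 5.14 and 4.72 in HL60, so these lines overlapped, while KG1a and MOLM14 were at 5.49 or more. SAMD9 measured 6.25, 6.56 and 6.04 in U937 and at least 6.85 in each other array. TRIM5 measured 5.11, 5.27 and 5.14 in U937, where the lowest KG1a array, at 5.26, overlapped U937.

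Stem and progenitor genes were lower in 22 and higher in 4 of 28 tested (78.6% and 14.3%, against 30.6% and 30.8% of all genes), with a median of -0.79. Without KG1a, 10 were lower and 6 higher, with a median of -0.01. CD34 measured 3.57, 3.27 and 3.75 in U937 and 11.27, 11.18 and 11.26 in KG1a, with the arrays of HL60 and MOLM14 between 3.35 and 4.03. FLT3 averaged 3.35 in U937 and 10.38 in MOLM14. Lower than in each line were NRIP1 and GATA2, a factor of progenitors and mast cells (-1.56), which averaged 3.79 in U937, 5.76 in HL60, 6.19 in KG1a and 4.12 in MOLM14. CD38 was higher than the mean (1.59), with 7.36 in U937 and 7.80 in MOLM14.

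Among transcription factors, MEIS1, the partner of HOXA proteins, measured 6.50, 6.70 and 6.40 in U937 and 6.86, 6.82 and 6.74 in MOLM14, while HL60 and KG1a stayed at 3.58 or less. MEIS2 was lower than in each line (-1.93). WT1, a factor often expressed in leukaemia, measured 4.46, 4.39 and 4.80 in U937 and at least 7.03 in each other array (-2.79 ± 0.09, adjusted p = 1.18e-18 in limma's test). GFI1, a transcriptional repressor that acts in the granulocytic lineage, averaged 7.58 in U937, against 6.24 in HL60, 4.94 in KG1a and 6.24 in MOLM14. IRF8, which directs monocyte development, averaged 8.07 in U937 and 10.22 in MOLM14, against 3.85 in HL60 and 4.11 in KG1a. SPI1, a central factor of myeloid cells, averaged 7.58 in U937, 7.52 in HL60 and 7.94 in MOLM14, against 4.65 in KG1a, and its difference of 0.88 turned to -0.14 without KG1a. Of 24 myeloid factors, 13 were higher and 8 lower (54.2% and 33.3%, against 30.8% and 30.6% of all genes), with a median of 0.35. Without HL60, 11 were higher and 11 lower with a median of -0.14, and without KG1a, 9 were higher and 6 lower with a median of -0.02. In the metformin arrays 11 were higher and 10 lower. Of 9 HOX genes and partners, 1 was higher and 7 lower (11.1% and 77.8%), and 2 were higher without KG1a. HOXB2 (-1.38) averaged 3.62 in U937 and 7.48 in KG1a. CEBPA and HOXA9 were not analysed here.

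Genes known from lymphocytes differed in both directions. Of 16 B cell genes, 8 were higher and 4 lower (50% and 25%, against 30.8% and 30.6% of all genes), and 2 were lower without the 3 arrays that stood apart. Of the list, 6 were above each line (37.5%, against 12.4% of all genes). BTK, a kinase shared by B cells and myeloid cells, averaged 9.80 in U937, 9.30 in HL60 and 9.56 in MOLM14, against 3.63 in KG1a. CD24 (1.40), the inhibitory receptor CD22 (1.28), FCMR (1.27), EBF1 (1.24) and POU2F2 (1.22) were also above each line, each between 4.99 and 5.51 in U937. The B cell scaffold BANK1 was lower than in each line (-3.18). PAX5, the defining B cell factor, averaged 4.88 in U937, against 4.59 in HL60, 4.54 in KG1a and 6.29 in MOLM14. Of 16 T cell genes, 2 were higher and 9 lower (12.5% and 56.2%), and 5 were lower without KG1a. LEF1, a transcription factor of the Wnt pathway, was lower (-2.60 ± 0.11), with means of 3.26 in U937, 6.72 in HL60, 7.54 in KG1a and 3.33 in MOLM14. GATA3, a factor of T cells, was lower as well (-1.09), at 4.05 in U937 and 7.09 in KG1a. The higher members were TARP, of the T cell receptor gamma locus (2.13), and LAT. LAT, an adaptor of T cells, mast cells and platelets, measured 7.62, 7.56 and 7.02 in U937 and at most 4.86 elsewhere (2.97 ± 0.11). Of 11 NK and cytotoxic genes, 2 were higher and 6 lower, and without KG1a, 2 were higher and 1 lower. The higher members were NKG7 and the receptor CD160 (1.39), and the pore-forming PRF1 (-0.99) averaged 3.27 in U937 and 6.12 in KG1a.

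Lists of other blood lineages were short, and the counts here are to be read beside 30.8% higher and 30.6% lower of all genes. Of 8 erythroid genes, 2 were higher and 5 lower (25% and 62.5%), and 3 were lower without KG1a and 1 higher without MOLM14. KLF1, a factor of erythroid cells, was above each line (1.01), at 5.03 in U937, and the carbonic anhydrase CA2 below each (-1.31). Of 9 megakaryocyte genes, 2 were higher and 3 lower (22.2% and 33.3%), and without KG1a, 2 were higher and 1 lower. LTBP1, which binds latent TGF-beta, averaged 6.14 in U937 and at most 3.82 in another line (2.58 ± 0.08). Of 10 eosinophil, basophil and mast cell genes, 4 were higher and 5 lower (40% and 50%), with a median of -0.74 that was 0.03 without HL60. HPGDS, a prostaglandin D synthase, was lower (-3.05), with means of 3.04 in U937 and 3.09 in MOLM14, against 10.13 in KG1a. Of 10 cancer-testis antigen genes, 3 were higher and 3 lower (30% and 30%), near the shares of all genes, and 1 was lower without KG1a. Of 9 genes of MHC class I and peptide loading, 2 were higher and 4 lower (22.2% and 44.4%), and 1 was higher without KG1a. ERAP2, an aminopeptidase that trims peptides for MHC class I, was below each line (-2.50 ± 0.08), at 4.87 in U937 and 7.10 in KG1a, the nearest line. Of 2 NADPH oxidase genes tested, 1 was higher and none lower, and without HL60 none was higher and 1 lower. No gene of the MHC class II list was tested.

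**Figure D3:**
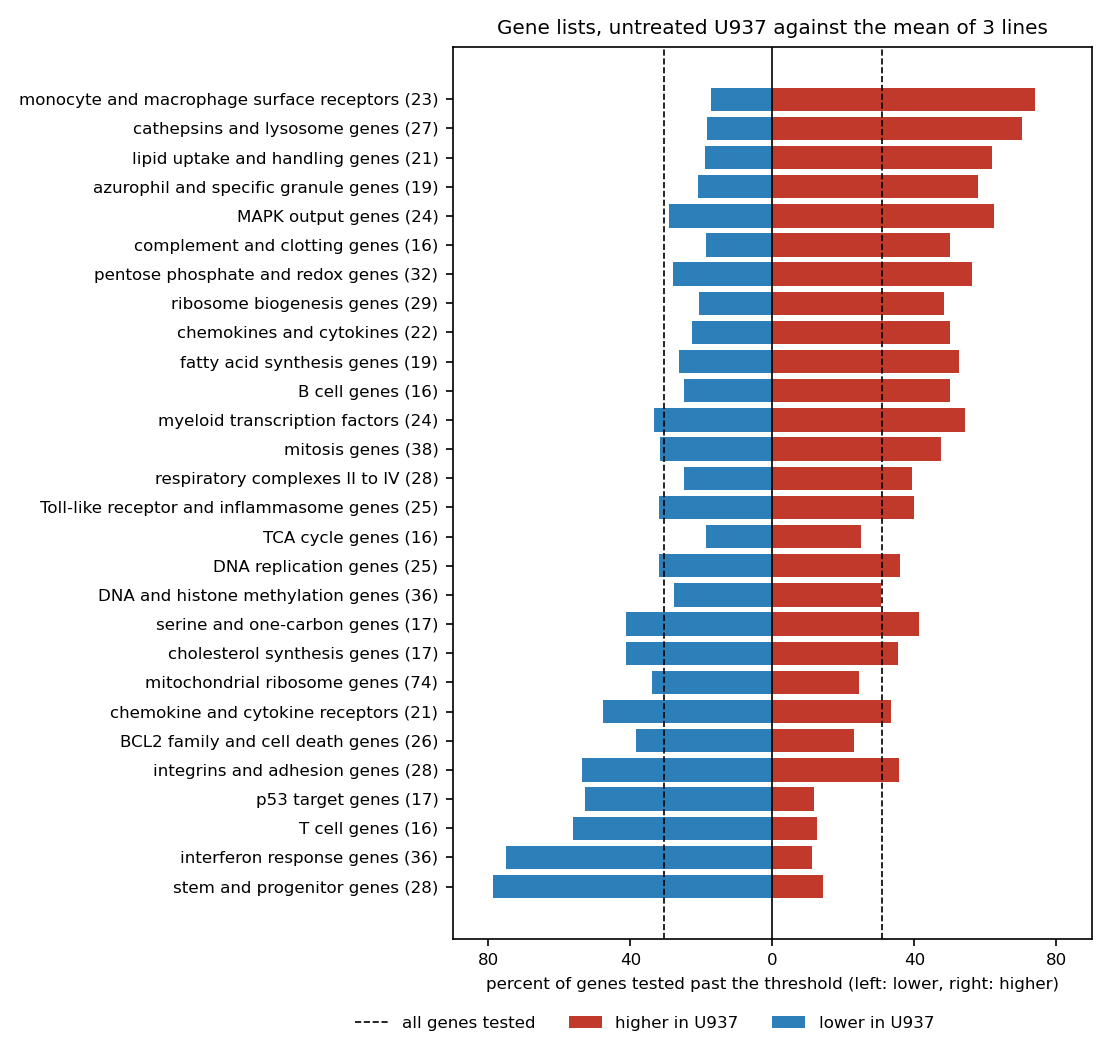
Percent of tested genes (horizontal axis) that were higher (red, to the right) or lower (blue, to the left) in untreated U937 than in the mean of the 3 other lines, for gene lists with at least 15 genes tested, whose number stands in brackets. Dashed lines mark all 10641 genes, 30.8% higher and 30.6% lower. The lists of surface receptors and lysosomal genes reach 73.9% and 70.4% higher, and those of progenitor and interferon genes 78.6% and 75% lower.

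The lists of metabolic genes held members that were higher and members that were lower, beside 30.8% higher and 30.6% lower of all genes. Of 28 subunits and assembly factors of respiratory complexes II to IV, 11 were higher and 7 lower (39.3% and 25%), and without KG1a, 6 were higher and 9 lower. UQCRC2 of complex III measured 10.91, 10.90 and 10.86 in U937 and at most 10.42 elsewhere (0.56 ± 0.06). UQCRC1 (0.52), COX5A (0.59), COX7B (0.47) and the assembly factor COX11 (0.73) were above each line, and COX6A1 (-0.33) and SDHAF2 (-0.66) below each. Of 16 TCA cycle genes, 4 were higher and 3 lower (25% and 18.8%), both below the shares of all genes. The 3 subunits of isocitrate dehydrogenase IDH3A (0.91), IDH3B (1.14) and IDH3G (0.46) and the pyruvate dehydrogenase subunit PDHA1 (0.90) were above each line, and GLUD1 (-0.55) and DLAT (-0.45) were below each. IDH3A lies on chromosome 15, IDH3B on chromosome 20, and IDH3G and PDHA1 on chromosome X. On these chromosomes 34.7%, 29.2% and 35.2% of all genes tested were above each line. Whether such members differ beyond their chromosomes was not tested. Of 74 mitochondrial ribosome genes, 18 were higher and 25 lower (24.3% and 33.8%), and this turned to 22 higher and 18 lower with quantile normalization, 20 and 18 without the 3 arrays that stood apart, 24 and 17 without HL60, and 23 and 21 without MOLM14. Of 9 glycolysis genes tested, 4 were higher and 1 lower (44.4% and 11.1%), and none was lower without HL60, without the 3 arrays that stood apart, or with arrays centred on their medians. Of these genes HK1 (1.48), GPI (0.81) and PGK1 (0.57) were above each line. Of 19 fatty acid synthesis genes, 10 were higher and 5 lower (52.6% and 26.3%), with 5 above and 1 below each line. In the metformin arrays 7 were higher and 5 lower, with 1 above and 2 below each line. ACACB, an acetyl-CoA carboxylase, was above each line (0.91), and the desaturase SCD5 (0.95) was higher than the mean. ELOVL6, which elongates fatty acids, was lower than in each line (-3.04), at 3.54 in U937 and 4.65 in MOLM14. Of 32 pentose phosphate and redox genes, 18 were higher and 9 lower (56.2% and 28.1%). The glutathione reductase GSR was above each line (1.07), the glutathione transferase GSTM4, one of a family of close copies (-2.48), and the thioredoxin-binding TXNIP (-2.04) were below each, and the peroxidase GPX7 (-3.18) was lower than the mean. Of 17 cholesterol synthesis genes, 6 were higher and 7 lower, and without KG1a, 6 were higher and 5 lower. In the metformin arrays 3 of them were higher and 9 lower. Of 17 serine and one-carbon genes, 7 were higher and 7 lower, with 4 lower without HL60.

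Cell cycle genes were also split. Of 38 mitosis genes, 18 were higher and 12 lower (47.4% and 31.6%, against 30.8% and 30.6% of all genes), with 9 above and 5 below each line (23.7% and 13.2%, against 12.4% and 8.13%). The kinesin KIF4A measured 8.27, 8.49 and 8.57 in U937 and at most 7.82 elsewhere (0.82 ± 0.09). The kinesins KIF23 (0.75), KIF15 (0.52) and KIF2C (0.51) and the histone variant CENPA (0.65) were above each line. BIRC5, which encodes survivin, was below each line (-1.0), as were BUB3 (-0.58) and CDK1 (-0.37). Of 24 MAPK output genes, 15 were higher and 7 lower (62.5% and 29.2%), and 9 were higher without KG1a. In the metformin arrays 9 were higher and 7 lower, with a median of -0.03, against 0.32 in untreated arrays. JUN (2.08), DUSP4 (1.63) and SPRY2 (1.16) were above each line, and DUSP10 (-1.66) was below each. Of 17 p53 target genes, 2 were higher and 9 lower (11.8% and 52.9%), and 4 were higher without KG1a and 5 without MOLM14. TP53I3 (-1.32) was below each line. Of 10 CDK inhibitors, D cyclins and related genes, 3 were higher and 6 lower, and without MOLM14, 3 were higher and 3 lower. CDKN2A, a cell cycle inhibitor (1.48), averaged 5.39 in U937 and 5.19 in HL60, against 3.37 in KG1a and 3.18 in MOLM14. Of 25 DNA replication genes, 9 were higher and 8 lower, and without MOLM14, 8 were higher and 9 lower.

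Other lists are given by their counts, to be read beside 30.8% higher and 30.6% lower of all genes. Of 29 ribosome biogenesis genes, 14 were higher and 6 lower (48.3% and 20.7%), but 8 were higher and 11 lower in the metformin arrays. Of 36 DNA and histone methylation genes, 11 were higher and 10 lower, and without MOLM14, 9 were higher and 11 lower. Of 28 integrin and adhesion genes, 10 were higher and 15 lower (35.7% and 53.6%), and of 26 genes of the BCL2 family and cell death, 6 were higher and 10 lower (23.1% and 38.5%). Of 16 complement and clotting genes, 8 were higher and 3 lower (50% and 18.8%), with 5 lower without HL60 and 1 lower without the 3 arrays that stood apart. The secreted chaperone CLU was above each line (2.56), and TFPI, an inhibitor of the clotting cascade, below each (-1.66). Of 11 heat shock genes, 7 were higher and 2 lower (63.6% and 18.2%), with 1 lower without MOLM14.

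Metallothionein genes, which encode small metal-binding proteins, were higher in part. Of 7 tested members of the MT1 and MT2 group, 4 were above each line, against 12.4% of all genes, namely MT1G, MT1F (3.07), MT1E (0.84) and MT1X (0.69). MT1F averaged 8.65 in U937 and 8.0 in MOLM14, against 4.69 in HL60 and 4.04 in KG1a. Their sequences are close copies of each other, so single values are uncertain. The heat shock genes HSPA1A (1.71) and HSPA1B (0.95), also near-identical copies, were above each line.

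Loci of microRNAs, short RNAs that pair with messenger RNAs through their seed, made up 503 of the genes tested. Higher than in each line were 18 (3.58%) and lower 17 (3.38%), fewer than the 12.4% and 8.13% of all genes tested. The arrays measured the transcribed loci, not the mature microRNAs. Mature sequences of loci described here follow with the seed, bases 2 to 8, in capitals, from RefSeq (GRCh38.p14). MIR221 and MIR222, and MIR424 and MIR503, are shown because these neighbouring loci differed in U937 and share all or part of a seed. MIR181B1 is shown for its large negative difference.
hsa-miR-181b-5p, from MIR181B1, chr1:198858925-198858947, minus strand: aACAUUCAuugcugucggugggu
hsa-miR-221-3p, from MIR221, chrX:45746180-45746202, minus strand: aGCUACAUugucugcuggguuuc
hsa-miR-222-3p, from MIR222, chrX:45747036-45747056, minus strand: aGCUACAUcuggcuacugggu
hsa-miR-424-5p, from MIR424, chrX:134546680-134546701, minus strand: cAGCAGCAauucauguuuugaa
hsa-miR-503-5p, from MIR503, chrX:134546371-134546393, minus strand: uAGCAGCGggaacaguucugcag
MIR181B1 measured 4.31, 3.83 and 3.89 in U937, against means of 8.31 in HL60, 8.78 in KG1a and 6.70 in MOLM14 (-3.92 ± 0.11, adjusted p = 3.74e-20 in limma's test). Its host transcript MIR181A1HG overlaps it, so the signals cannot be assigned to 1 of them, and was lower too (-2.20 ± 0.10). MIR181B2, the copy of the locus on chromosome 9, was lower by less (-0.80 ± 0.13). MIR221 measured 8.32, 8.26 and 8.06 in U937 and at most 7.42 elsewhere (1.25 ± 0.12). MIR222, next to it and with the same seed, measured 4.41, 4.26 and 4.29 in U937 and at most 3.89 elsewhere (0.91 ± 0.16). MIR424 (1.15 ± 0.08) and its neighbour MIR503 (0.57 ± 0.09), whose seeds differ in the last base, were above each line as well. MIR223, the microRNA of myeloid cells, was higher than the mean (1.62 ± 0.10) but averaged 7.79 in U937 and 7.69 in MOLM14.

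Loci of other types were named by size among those apart from all 3 lines. The long noncoding RNA LINC00926 averaged 3.93 ± 0.08 above the other lines, and MIR548I2 (3.77 ± 0.16) and MIR548I1 (3.58 ± 0.15) followed. The MIR548I loci are copies of one repeat, so their signals cannot be told apart. LINC01278 (-3.45 ± 0.10) and the pseudogene HSD17B7P2 (-3.07 ± 0.10) were the lowest beside MIR181B1, and HSD17B7P2 shares sequence with its parent gene.

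The genes apart from all 3 lines were spread unevenly over the chromosomes. On chromosome X 35.2% of 352 genes tested were above each line, on chromosome 15 34.7% of 346 and on chromosome 20 29.2% of 291, against 12.4% of all genes. On these chromosomes 2.27%, 2.89% and 1.72% were below each line. Chromosome 4 had 16.6% of 409 genes below each line and chromosome 18 had 16.4% of 146, against 8.13% of all genes. Median differences were small, 0.31 on chromosome X, 0.25 on chromosome 15 and 0.23 on chromosome 20, and -0.18 on chromosome 4. Against single lines the median of chromosome 15 was 0.33 for HL60, 0.23 for KG1a and 0.27 for MOLM14. In the metformin arrays 30.7% of genes on chromosome X, 34.1% on chromosome 15 and 28.2% on chromosome 20 were above each line. DNA content was not measured here. Shares of gene lists were not compared with those of their members' chromosomes.

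**Figure D4:**
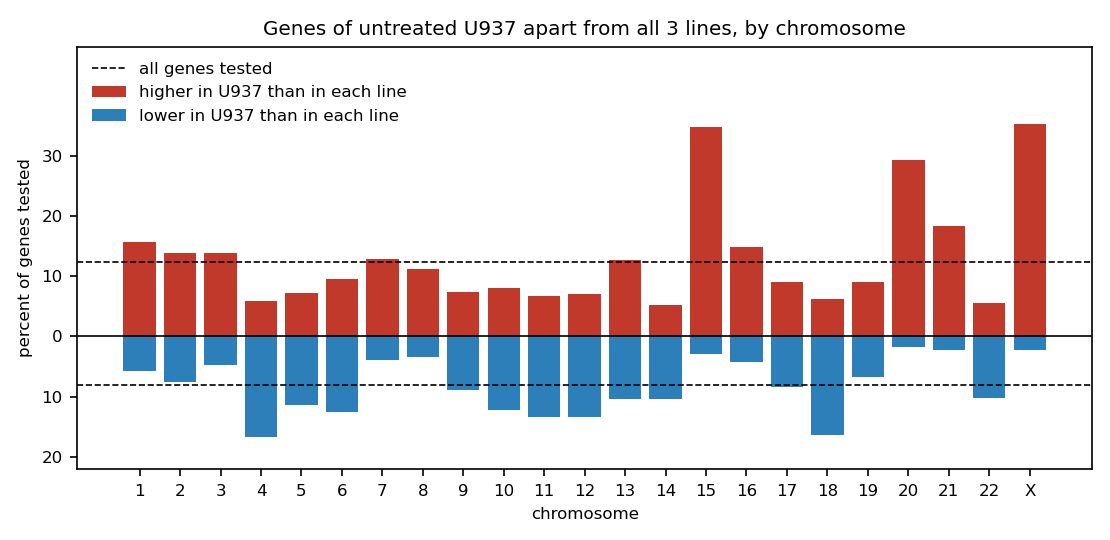
Percent of the genes tested on each chromosome (horizontal axis) that were higher (red, upward) or lower (blue, downward) in untreated U937 than in each of the 3 other lines. Dashed lines mark all genes, 12.4% higher and 8.13% lower. Chromosomes 15, 20 and X stand highest with 34.7%, 29.2% and 35.2%.

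Windows of 15 neighbouring genes were described on these and other chromosomes. The window from ISL2 to FAH on chromosome 15, which holds BCL2A1, CTSH and IDH3A, had 12 of 15 genes above each line and a median of 0.96. On chromosome 20 the window from THBD to ENTPD6, which holds CST7 and CST3, had 7 above each line and a median of 0.93. The lowest window of the genome was a run of zinc finger genes on chromosome 19 from ZNF682 to ZNF257, with a median of -1.29, but it was far from KG1a (-3.17) and close to HL60 (-0.09). A window on chromosome 6 from OGFRL1 to SH3BGRL2 had a median of -1.07 and 8 genes below each line, among them HMGN3, IRAK1BP1 and CGAS, the sensor of cytosolic DNA (-0.85). Over the series 420 ZNF genes were tested, and 65 (15.5%) were below and 22 (5.24%) above each line, against 8.13% and 12.4% of all genes.

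The same comparison was made in the 12 metformin-treated arrays, which share no array with the untreated one. Both came from 1 fit of all 24 arrays and share its estimate of the spread and its filter. The metformin comparison gave 3199 genes higher in U937 (30.1% of genes tested) and 3392 lower (31.9%), together 61.9%. With the metformin arrays fitted alone, 3208 were higher and 3423 lower. Apart from all 3 lines were 1272 higher genes (12%) and 914 lower ones (8.59%). Of the 1323 genes above each line when untreated, 1012 were above each line with metformin too, which is 76.5% of the untreated and 79.6% of the treated list. Of the 865 below each line, 656 were so with metformin, which is 75.8% of the untreated and 71.8% of the treated list. None turned to the opposite side of all 3 lines. The sign of the mean difference was kept in 1317 of 1323 and 862 of 865 genes. All 24 genes named by size were apart from all 3 lines in the treated arrays as well.

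The U937 difference itself differed between treated and untreated arrays in 261 genes (2.45%), 110 higher with metformin (1.03%) and 151 lower (1.42%). The count was 134 without U937 Ctrl A, 119 without U937 Ctrl B, 152 without U937 Met A and 164 without U937 Met C. Among the genes apart from all 3 lines when untreated, 74 of the higher and 32 of the lower ones changed, and in 55 of these the difference moved toward 0 with metformin. CCL2 differed by 6.38 ± 0.13 in treated and 7.55 ± 0.13 in untreated arrays, a change of -1.17 ± 0.18 (adjusted p = 0.000565 in limma's test). BCL2A1 differed by 3.37 ± 0.09 in treated and 4.02 ± 0.09 in untreated arrays. E2F7 differed by -2.76 ± 0.08 in treated and -3.60 ± 0.08 in untreated arrays. The MIR221 difference was 0.04 ± 0.12 in treated and 1.25 ± 0.12 in untreated arrays (adjusted p = 0.000259 for the change in limma's test). MIR222, with the same seed, differed by 0.35 ± 0.16 in treated and 0.91 ± 0.16 in untreated arrays, and that change did not pass (adjusted p = 0.242 in limma's test). MEIS1 differed by 2.41 ± 0.08 in treated and 1.96 ± 0.08 in untreated arrays. Of the lists, the 36 interferon genes had 27 lower and 5 higher in treated arrays, the 27 lysosomal genes 21 higher and 4 lower, and the 38 mitosis genes 24 higher and 8 lower. Other lists were not kept. The 29 ribosome biogenesis genes had 8 higher and 11 lower in treated arrays, against 14 and 6 untreated. The 24 MAPK output genes had 9 higher and 7 lower, against 15 and 7 untreated.

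**Figure D5:**
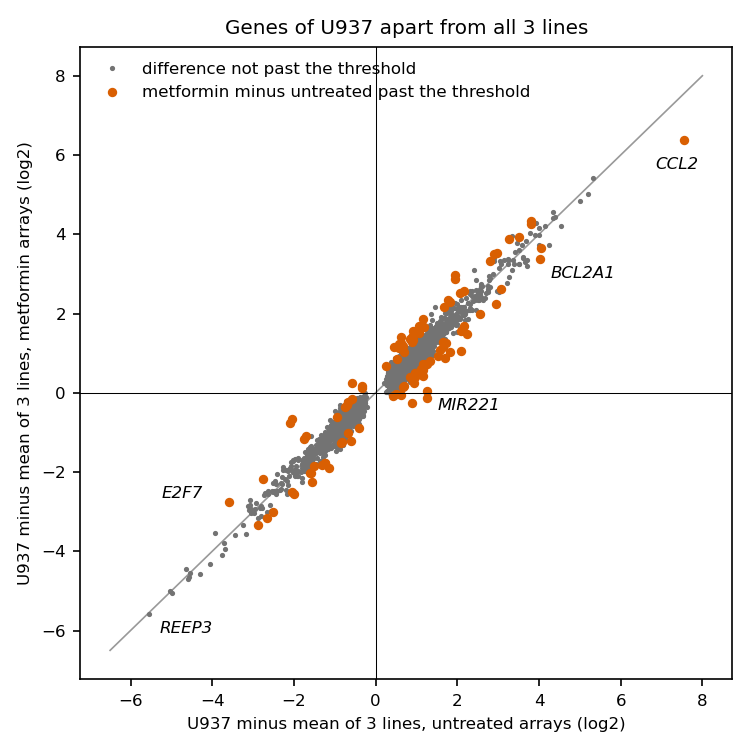
Difference of U937 from the mean of the 3 other lines (log2) in metformin arrays (vertical axis) and in untreated arrays (horizontal axis) for the genes apart from all 3 lines when untreated, each point 1 gene, with the line of equal values in grey. Orange points are genes whose difference changed between treated and untreated arrays. CCL2 lies under the line at 6.38 and 7.55, MIR221 near 0 on the vertical axis, and REEP3 on the line at -5.58 and -5.55.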

How the data were processed

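RNA of 24 arrays was measured, 3 for each of 8 groups, and samples were grouped by the labels' titles. Values are log2 normalized signals deposited by the authors, made with Partek software per the submitters' processing notes. The background correction, the normalization and the probe build are not stated in the labels or notes used here. Of 53617 rows, 16098 named 1 gene in the platform annotation and 37519 named none and were not used. The row with the highest mean over the 24 arrays stood for each of 14884 genes, 779 of which had more than 1 row. Genes were kept where a group mean reached 4.02, the median of all values, which left 10641. List members low in every group were thus left out, and shares of lists favour members high in some group. The number of arrays limits the precision.

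The 8 group means were fitted with limma 3.58.1 in R 4.3.3 (lmFit and eBayes, 16 residual degrees of freedom), with Benjamini-Hochberg adjustment over all genes kept and a threshold of 0.05. The fit was tested on simulated data. Genes named were the 12 largest differences each way among protein-coding genes apart from all 3 lines and without overlap of arrays, the next 6 each way by distance from the nearest line, 3 each way of other gene types, up to 4 per gene list by adjusted p, and a fixed set of markers. Further genes named were chosen after their values were seen. The members and lists were chosen with earlier results of these data known. Correlations of deviations from group means lay between -0.22 and 0.37 for arrays with the same replicate letter and between -0.33 and 0.28 for different letters. Their medians were -0.001 and 0.003. These pairs mix lines and treatments, so pairing of treated and untreated arrays within a line was not tested, and no pairing was used. Of the gene lists, 1 is not reported here. Sequences are from RefSeq (GRCh38.p14), and gene order is from the RefSeq gene table. Alternatives covered normalization, filter, row choice, arrays in the fit, moderation, gene type, threshold, and leaving out arrays or lines.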

Additional observations from a re-analysis of the deposited data

Results flagged for a closer look

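For the genes below, limma's test found that the difference of U937 from the mean of the other lines was not the same in metformin and untreated arrays. The change is the metformin difference minus the untreated one, with 3 arrays per group. Negative changes were the more numerous among these genes, and over all genes tested 151 were negative and 110 positive. These genes were named in part for large untreated differences, so the balance of directions among them is not a result. Among all genes apart from all 3 lines when untreated, 55 changes were toward 0 and 51 away from it. CXCL8 changed by -1.74, with a U937 difference of 0.29 in metformin and 2.03 in untreated arrays, CCL2 by -1.17 and JUN by -1.01. HSPA1A changed by -0.84, HSPA1B by -0.70, CEACAM6 by -0.80, MMP8 by -0.59, TREM1 by -0.73 and FPR2 by -0.70. BCL2A1 changed by -0.65, SPRY2 by -0.58, POU2F2 by -0.52, PAX5 by -0.48, SIGLEC5 by -0.45, CGAS by -0.41 and CST7 by -0.39. TARP changed by -1.27. The microRNA loci MIR221 (-1.20), MIR223 (-0.79) and MIR424 (-0.43) also had negative changes. Positive changes were those of TXNIP (1.37), E2F7 (0.83), TCTN2 (0.57), SMC1B (0.54), PTGS1 (0.53), ASAH1 (0.49), GPNMB (0.46), MEIS1 (0.45) and KIF15 (0.33). In TXNIP, E2F7 and TCTN2, which were lower in U937, the difference was closer to 0 in metformin arrays. Adjusted p-values in limma's test lay between 1.2e-06 and 0.0473.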

How the results depend on the processing

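Every array left out in turn gave 5952 to 6546 genes that differed from the mean of the other lines, 5543 to 5790 from HL60, 6220 to 6455 from KG1a, 5515 to 5714 from MOLM14, and 6086 to 6526 in the metformin arrays. Genes apart from all 3 lines numbered 1986 to 2159. The count of genes whose U937 difference changed with metformin depended most on single arrays, with 119 to 270, and was 81 at an adjusted p of 0.01, against 261 in the fit reported. Without MOLM14, which leaves 2 lines to differ from, 3449 genes were apart. The replicate letter as a block gave 6529 genes different from the mean, 2181 apart and 208 changed with metformin. Whether the letters pair arrays within a line was not tested, and the fit reported has no block. Quantile normalization gave 3510 higher and 3118 lower genes and centring on medians 3254 and 3121. Of 7449 alternative values of named genes, 7370 kept their direction and side of the threshold. Directions turned without HL60 for CLC (0.11) and MRPS30 (0.08). They turned without KG1a for CD4 (-0.61), CD7 (0.14), CTSG (-0.10), MMRN1 (0.04), PHGDH (-0.38), RHAG (0.08), SPI1 (-0.14) and ZNF682 (0.08). They turned without MOLM14 for CSF1R (0.17), ERAP1 (0.07), HK2 (-0.05), MRPS30 (0.06), PAX5 (0.32) and XK (-0.46). These follow from the other line's weight in the mean. Signals under 4.02 limit what the arrays can order.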
